A study of Mus musculus with 6 samples.

Results

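The circadian clock genes described here were Arntl, Clock, Per1, Per2, Per3, Cry1, Cry2, Dbp, Tef and Nfil3, 10 of the 55450 genes counted in each library. They were taken by gene name from the GENCODE M21 annotation and matched to the count tables by Ensembl identifier with its version. The rule itself uses no measured value, although it was set with earlier results of these data known. RNA was sequenced in bulk from liver hepatocytes of C57BL/6 mice in 6 libraries, 3 labelled 0hr and 3 labelled 48hr. The 0 h mice were healthy adult males with an undamaged liver, and no sham operation is described for them. The 48 h mice had lost part of the liver by surgery (partial hepatectomy, PHx) 48 hours earlier. Both groups were wild type, ate normal chow, and lived under a light/dark cycle. The labels give an age of 10 to 12 weeks, and the study's methods give a slightly younger one. Cells were freed by perfusing the liver with collagenase in 2 steps, and each library came from a separate hepatocyte preparation. The hour of the day at which livers were taken is not given in the sources used here, so time after PHx and time of day at collection cannot be told apart in any comparison of these genes. The groups also differed in PHx itself, which cannot be told apart from the interval after it.

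The mammalian clock is a feedback loop of transcription. BMAL1, the product of Arntl, pairs with CLOCK or NPAS2 on E-box sequences and drives the Per and Cry genes, whose proteins then repress that pair until they are degraded. A second loop runs through the nuclear receptors REV-ERB and ROR, which repress and activate Arntl, and a further loop through D-box sequences, which DBP, TEF and HLF activate and NFIL3 represses. In mouse liver these genes peak in a fixed daily order. Arntl, Clock, Npas2, Nfil3 and Cry1 peak from late night to morning, and Dbp, Tef, the Per genes and the REV-ERB genes peak during the day or evening.

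Between 0 h and 48 h, 5 of the 10 clock genes rose (Per1, Per2, Per3, Dbp and Tef), 2 fell (Arntl and Cry1), and 3 did not pass the test (Clock, Cry2 and Nfil3). The Per genes rose 2.09-fold to 3.77-fold, Dbp rose 3.06-fold and Arntl fell 3.88-fold. Calls were made at an adjusted p under 0.05 with the quasi-likelihood test of edgeR, adjusted by the Benjamini-Hochberg method over 17037 genes. Of all those genes 40.7% were called, 21.4% as higher and 19.3% as lower at 48 h, so a call by itself was common in these libraries. The median log2 fold change was 0.43 over the clock genes and -0.0033 over all genes tested. Every 48 h library lay on the same side of every 0 h library for 7 of the 10 clock genes, and this held for 52.7% of all genes tested.

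The libraries held 31419443 to 36346220 counts on genes, and each clock gene had at least 143 counts in every library. Levels are given as CPM, a gene's counts relative to the total of its library, after scaling by the trimmed mean of M values (TMM). The hepatocyte label was borne out by a list of 8 hepatocyte genes such as albumin, which summed to 97358 to 114960 CPM at 0 h and to 62307 to 72419 CPM at 48 h, with 3 called lower and 0 higher. Of 8 endothelial markers 8 were called lower, from a summed 207 to 327 CPM down to 148 to 164 CPM, and of 8 Kupffer cell markers 2 were called higher, from 73.6 to 111 CPM up to 107 to 131 CPM. Stellate cell and fibroblast markers summed to 64.2 to 105 CPM and 56.0 to 67.0 CPM, with 1 called each way among 7 tested, and cholangiocyte markers to 9.38 to 20.97 CPM and 17.3 to 27.0 CPM, with 2 of 3 tested called higher. Neutrophil markers reached at most 1.20 CPM in sum and lymphocyte markers at most 4.25 CPM, with 1 of each tested and called lower, and Mpo, Retnlg and Ltf had 0 counts. Clock genes are expressed in many cell types, and the part of these other cells in the values below was not tested. In bulk RNA, fewer cells of a type and less RNA per cell cannot be told apart. All 5 proliferation genes of a fixed list (Mki67, Top2a, Ccnb1, Ccna2 and Cdk1) rose, with a median log2 fold change of 5.99.

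The order of the libraries within a time point recurred across several clock genes. At 48 h, replicate 1 had the highest Arntl and Cry1 and the lowest Per1, Per2, Per3, Dbp and Tef of its group, so for these genes it stood nearest to the 0 h libraries. Replicate 3 held the other end for Arntl, Cry1, Per2, Dbp and Tef. At 0 h, replicate 2 had the lowest Arntl, Clock, Nfil3, Cry1, Cry2 and Per2. For Per2 the gap was small, at 22.3 against 22.5 CPM in replicate 3. Replicate 2 was also the lowest of the 0 h libraries for 40.1% of all genes tested.

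**Figure D1:**
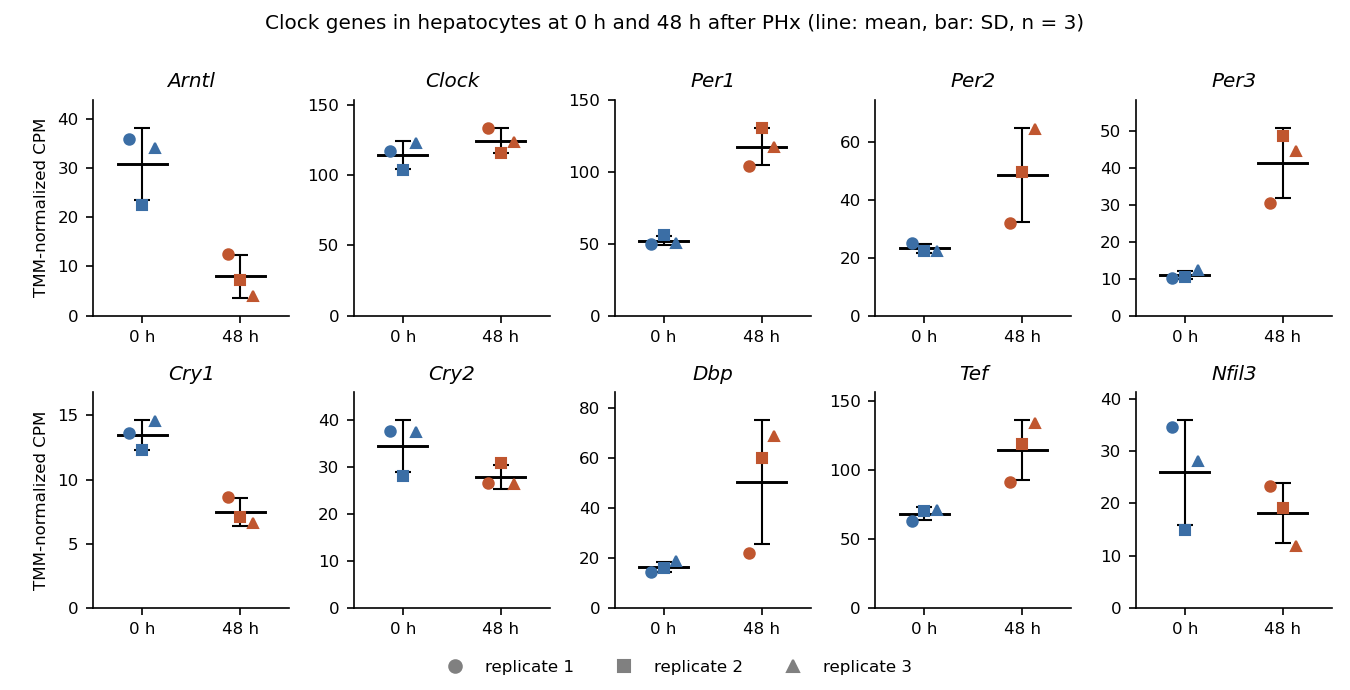
TMM-normalized CPM of the 10 clock genes in each of the 6 libraries, with each point 1 library, the line the mean and the bar the SD of 3 libraries. The 48 h libraries lie above every 0 h library for Per1, Per2, Per3, Dbp and Tef and below them for Arntl and Cry1, and the groups overlap for Clock, Cry2 and Nfil3.

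Short stretches of the promoters show where the sequences read by the clock proteins lie. RefSeq windows of 300 bases, 250 before and 50 after an annotated start on GRCm38.p6, matched 9 of the 10 genes, all but Per2, in 14 windows. They were searched on both strands for the E-box CACGTG, the related E-prime box CACGTT or AACGTG, the D-box TTATGTAA or TTACATAA, and the ROR element TAGGTCA or TGACCTA. No letters of one of these motifs can hold another of them. Of 32851 windows genome-wide, 7.15% held the E-box, 4.68% the E-prime box, 0.938% the D-box and 2.61% the ROR element. Of the 9 clock genes searched, 7 held at least 1 motif. This count is per gene and for any of the motifs, so it cannot be set against the shares per window and motif. A stretch with a motif is shown for each of these 7 genes, 5′ to 3′ on the gene's own strand, with the motif in capitals. They lie at chr4:151044786-151044885 (minus) for Per3, chr11:69098739-69098838 (plus) for Per1, chr15:81811224-81811323 (plus) for Tef, chr10:85185075-85185164 (minus) for Cry1, chr2:92434180-92434279 (minus) for Cry2, chr7:113207531-113207560 (plus) for Arntl and chr13:52981040-52981069 (minus) for Nfil3.
Per3: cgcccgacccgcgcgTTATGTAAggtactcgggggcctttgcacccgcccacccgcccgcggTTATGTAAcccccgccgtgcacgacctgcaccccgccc
Per1: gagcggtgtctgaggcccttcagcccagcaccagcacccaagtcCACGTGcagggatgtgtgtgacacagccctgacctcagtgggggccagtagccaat
Tef: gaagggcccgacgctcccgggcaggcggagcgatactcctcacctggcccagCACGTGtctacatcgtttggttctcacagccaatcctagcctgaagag
Cry1: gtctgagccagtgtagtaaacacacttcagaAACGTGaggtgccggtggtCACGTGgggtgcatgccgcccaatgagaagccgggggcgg
Cry2: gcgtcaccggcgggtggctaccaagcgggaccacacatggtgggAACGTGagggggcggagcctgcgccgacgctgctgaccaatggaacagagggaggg
Arntl: aggcagaaagTAGGTCAgggacggaggtgc
Nfil3: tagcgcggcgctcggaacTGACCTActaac

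The E-box began 166 bases before a start of Per1, 138 bases before a start of Tef (and 127 bases before another start of Tef, whose stretch is not shown) and 60 bases before that of Cry1. Per3 held 2 D-boxes, beginning 205 and 158 bases before its start. These first 5 stretches share no base with an annotated exon, whereas those of Arntl and Nfil3 lie within exons. An E-box was thus found both for genes that rose (Per1 and Tef) and for 1 that fell (Cry1). These matches describe letters in the reference genome, and binding was not measured in these libraries.

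Arntl, at chr7:113207465-113314126 (ENSMUSG00000055116.8), encodes BMAL1, the partner that CLOCK and NPAS2 share. Its level was 36.0, 22.5 and 34.1 CPM in 0 h replicates 1, 2 and 3, and 12.6, 7.22 and 4.08 CPM in 48 h replicates 1, 2 and 3. Every 48 h library was below every 0 h library. The mean fell from 30.9 ± 7.33 to 7.96 ± 4.30 CPM (SD, n = 3), a log2 fold change of -1.96 with a standard error of 0.33 and an edgeR adjusted p of 0.000989. Without 48 h replicate 1 the log2 fold change was -2.45, and without 48 h replicate 3 it was -1.63, with adjusted p under the threshold in both fits.

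Clock, at chr5:76209868-76304792 (ENSMUSG00000029238.11), encodes the DNA-binding partner of BMAL1. Its levels were 117, 103 and 122 CPM at 0 h and 133, 116 and 124 CPM at 48 h. The groups overlapped, with means of 114 ± 9.80 and 124 ± 8.94 CPM and an edgeR adjusted p of 0.432. The partners of this heterodimer therefore gave unlike values, with Arntl called and Clock not called, although the difference between their changes was not itself tested.

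Per1, at chr11:69095217-69109960 (ENSMUSG00000020893.17), encodes a repressor of the CLOCK and BMAL1 pair whose gene also responds to outside signals such as glucocorticoids. It measured 50.005, 56.1 and 50.7 CPM at 0 h and 105, 131 and 118 CPM at 48 h. All 48 h libraries were well above the 0 h range. The mean rose from 52.3 ± 3.31 to 118 ± 13.1 CPM, a log2 fold change of 1.17 (SE 0.12, edgeR adjusted p = 3.11e-05).

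Per2, at chr1:91415982-91459324 (ENSMUSG00000055866.9), encodes a repressor that acts with the CRY proteins and whose loss disrupts the clock in mice. It measured 25.02, 22.3 and 22.5 CPM at 0 h and 32.0, 49.7 and 64.3 CPM at 48 h. The 0 h libraries were tightly grouped while the 48 h libraries were spread, with replicate 1 nearest to the 0 h values. Per2 rose 2.09-fold, a log2 fold change of 1.07 (SE 0.21, edgeR adjusted p = 0.0023).

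Per3, at chr4:151003652-151044665 (ENSMUSG00000028957.12), encodes another PER protein and lies nearer to the output of the loop. Its levels were 10.3, 10.3 and 12.2 CPM at 0 h and 30.5, 48.6 and 44.6 CPM at 48 h. The lowest 48 h library was above the highest 0 h library. The mean rose from 10.9 ± 1.12 to 41.2 ± 9.49 CPM, a log2 fold change of 1.91 (SE 0.17) and the smallest edgeR adjusted p of the 10 clock genes, 1.53e-05.

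Cry1 and Cry2 encode the cryptochromes, the repressors that PER proteins carry to the CLOCK and BMAL1 pair. Cry1, at chr10:85131700-85185064 (ENSMUSG00000020038.10), measured 13.6, 12.3 and 14.5 CPM at 0 h and 8.67, 7.08 and 6.65 CPM at 48 h. All 48 h libraries were lower, and Cry1 fell 1.81-fold, a log2 fold change of -0.85 (SE 0.15, edgeR adjusted p = 0.00101). Cry2, at chr2:92403646-92434043 (ENSMUSG00000068742.11), measured 37.7, 28.1 and 37.5 CPM at 0 h and 26.5, 30.8 and 26.4 CPM at 48 h. Its groups overlapped through 0 h replicate 2, and it was not called (log2 fold change -0.30, edgeR adjusted p = 0.097). Without 0 h replicate 2 Cry2 passed, with a log2 fold change of -0.44 and an edgeR adjusted p of 0.00911. Among these repressors of the same complex, the Per genes thus rose and Cry1 fell, while Cry2 was not called. The difference between the changes of the Per and Cry genes was not itself tested.

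Dbp, at chr7:45705088-45710203 (ENSMUSG00000059824.12), encodes an activator of D-box genes and is a direct target of CLOCK and BMAL1 with a strong daily rhythm in liver. It measured 14.5, 15.8 and 18.8 CPM at 0 h and 22.002, 59.96 and 68.6 CPM at 48 h. Replicate 1 at 48 h lay just above the 0 h range and far below the other 48 h libraries. Dbp rose from 16.4 ± 2.17 to 50.2 ± 24.8 CPM, a log2 fold change of 1.62 (SE 0.33, edgeR adjusted p = 0.00311). This was 1.97 without 48 h replicate 1, 1.47 without 48 h replicate 2 and 1.33 without 48 h replicate 3, with Dbp called in each fit. On the other strand Sphk2 covers 18.0% of the exon bases of Dbp, and whether reads were counted by strand is not given in the sources used here.

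Tef, at chr15:81802421-81826863 (ENSMUSG00000022389.15), encodes a relative of DBP that binds the same D-box. It measured 62.8, 70.5 and 71.3 CPM at 0 h and 91.3, 119 and 134 CPM at 48 h. The groups did not overlap, and Tef rose 1.68-fold, a log2 fold change of 0.75 (SE 0.14, edgeR adjusted p = 0.0021). As for Dbp and Per2, 48 h replicate 1 was the lowest of its group and replicate 3 the highest.

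Nfil3, at chr13:52967209-52981073 (ENSMUSG00000056749.7), encodes the repressor that competes with DBP and TEF for the D-box. Its levels were 34.6, 14.98 and 28.1 CPM at 0 h and 23.3, 19.2 and 11.9 CPM at 48 h. The groups overlapped and the gene was not called (log2 fold change -0.52, edgeR adjusted p = 0.191). Without 0 h replicate 2, the lowest of its group, Nfil3 passed with a log2 fold change of -0.80 and an edgeR adjusted p of 0.0275. It was -0.26 (edgeR adjusted p = 0.542) without 0 h replicate 1 and -0.28 (edgeR adjusted p = 0.468) without 48 h replicate 3, so its size rested on single libraries.

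**Figure D2:**
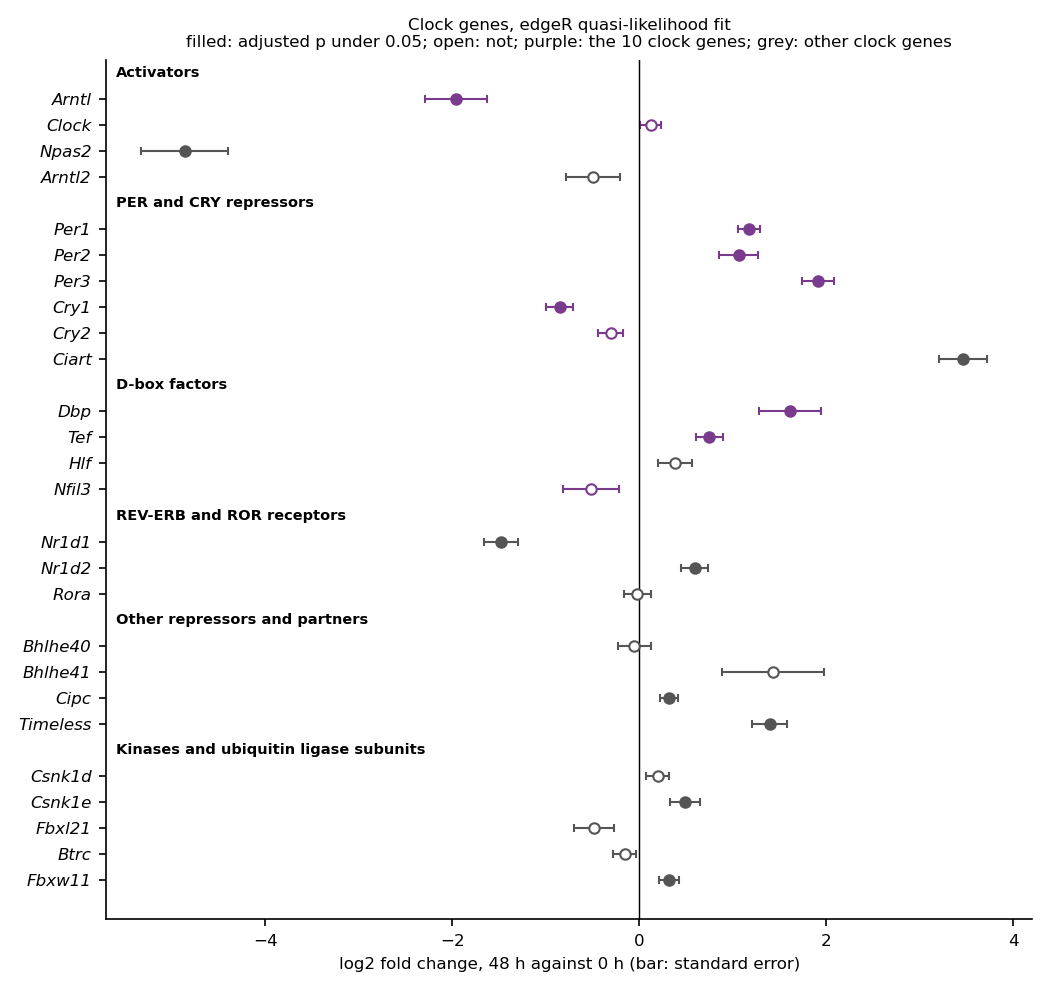
Log2 fold change of 48 h against 0 h with its standard error for the 10 clock genes (purple) and 16 other clock genes (grey), grouped by role, with filled points at an edgeR adjusted p under 0.05. Per1, Per2, Per3, Dbp and Tef lie to the right, Arntl and Cry1 to the left, and Npas2 at -4.86 and Ciart at 3.46 lie farthest out.

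Levels were put in order between clock genes per exon length, as CPM per kilobase. At 0 h the order of the means was Nfil3 at 12.8, Per1 at 9.28, Tef at 8.66, Clock at 8.32, Dbp at 5.47, Cry2 at 5.45, Arntl at 4.10, Cry1 at 4.04, Per2 at 3.97 and Per3 at 1.14 CPM per kilobase. Among neighbours in that order, only Clock from Dbp and Per2 from Per3 had ranges of libraries that did not overlap. At 48 h the order was Per1 at 20.9, Dbp at 16.8, Tef at 14.6, Clock at 9.05, Nfil3 at 8.94, Per2 at 8.31, Cry2 at 4.41, Per3 at 4.29, Cry1 at 2.24 and Arntl at 1.06 CPM per kilobase. Ranges were then apart between Tef and Clock, Per2 and Cry2, Per3 and Cry1, and Cry1 and Arntl. Arntl overlapped its neighbours Cry2 and Cry1 in the 0 h order and lay below every other clock gene in the 48 h order.

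The spread among replicates differed widely between clock genes. The within-group SD of log2 CPM was 0.65 for Dbp, 0.63 for Arntl and 0.57 for Nfil3, and 98%, 97.7% and 96.6% of the 13330 genes whose mean reached 1 CPM had a smaller spread. Clock at 0.12, Per1 at 0.13 and Cry1 at 0.16 were below the median of those genes, 0.19. Cry2 at 0.19, Tef at 0.21, Per3 at 0.27 and Per2 at 0.37 lay above it. Dbp and Arntl thus had the widest spread of the 10, followed by Nfil3, and the cause of the spread was not tested.

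The ratio of Dbp to Arntl within 1 library does not depend on scaling between libraries. It was taken from CPM without exon length, so its change between time points can be read but not which gene was the higher. The log2 ratio of Dbp to Arntl was -1.30, -0.50 and -0.86 at 0 h and 0.80, 3.04 and 4.04 at 48 h. The ratio was thus higher in every 48 h library than in any 0 h library, and 48 h replicate 1 was the nearest to the 0 h values. The mean went from -0.89 ± 0.40 to 2.63 ± 1.66 (SD, n = 3), a difference of 3.51. Since Dbp lay above and Arntl below all 0 h values in every 48 h library, their ratio had to separate the groups, so this difference is a description and carries no test. The log2 ratio of Nfil3 to Dbp, the repressor against the activator of D-boxes, was 1.24, -0.08 and 0.58 at 0 h and 0.08, -1.64 and -2.52 at 48 h. Here the groups overlapped between 48 h replicate 1 and 0 h replicate 2, and the difference of -1.94 had a two-sided exact permutation p of 0.2 (n = 3), where 0.1 is the smallest that 3 against 3 libraries can give.

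**Figure D3:**
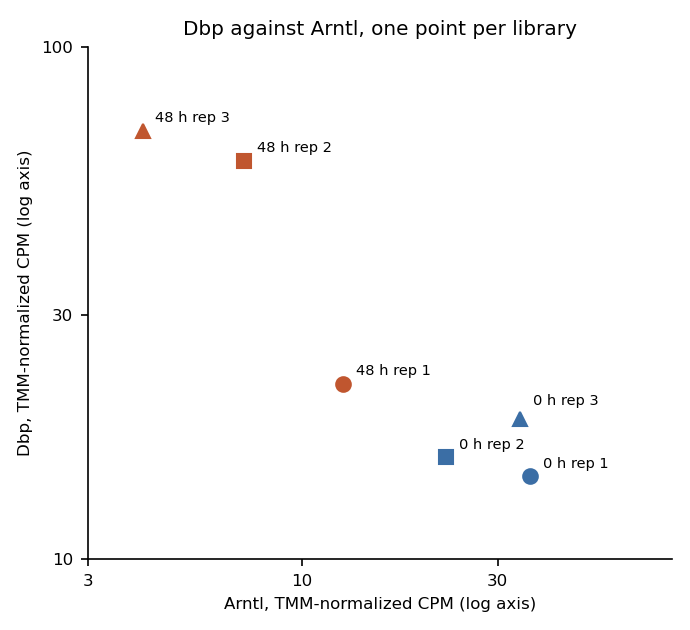
Dbp against Arntl in TMM-normalized CPM on log axes, with 1 point per library. The 0 h libraries lie at lower right, 48 h replicates 2 and 3 at upper left, and 48 h replicate 1, at 12.6 CPM of Arntl and 22.002 CPM of Dbp, between them.

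Of 17 other clock genes reported beside the 10, 16 had enough counts to test, 6 rose, 2 fell and 8 did not pass, with a median log2 fold change of 0.26. These 8 calls among 16 genes stand beside the 40.7% called over all genes, a similar share. Rorb had at most 4 counts in a library and was not tested. Npas2, which can replace CLOCK as the partner of BMAL1, measured 19.9, 7.64 and 18.9 CPM at 0 h and 0.891, 0.224 and 0.486 CPM at 48 h. That was a 29.1-fold fall (log2 fold change -4.86, SE 0.46, edgeR adjusted p = 2.31e-05), and the lowest library held 8 counts. Among activators Npas2 thus fell with Arntl, while Clock was not called and Arntl2, a close relative of Arntl, had a log2 fold change of -0.50 with an adjusted p of 0.204.

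The receptors of the second loop gave mixed values. Nr1d1 (REV-ERB alpha), a repressor of Arntl, measured 286, 217 and 290 CPM at 0 h and 78.0, 85.8 and 121 CPM at 48 h, a log2 fold change of -1.48 (edgeR adjusted p = 0.000139). Nr1d2 (REV-ERB beta) measured 49.1, 51.2 and 58.9 CPM at 0 h and 64.3, 81.5 and 94.4 CPM at 48 h, a log2 fold change of 0.59 (adjusted p = 0.00795). Nr1d1 therefore fell in the same libraries in which Nr1d2 rose, and Nr1d1 fell together with Arntl. On the annotation 8.55% of the exon bases of Nr1d1 are shared with Thra on the other strand. Rora, an activator of Arntl, had a log2 fold change of -0.02 (adjusted p = 0.921), whose sign was positive when libraries were scaled by size only.

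Ciart, a repressor of the CLOCK and BMAL1 pair, measured 1.16, 1.68 and 2.4996 CPM at 0 h and 15.3, 20.6 and 23.3 CPM at 48 h. This was an 11.0-fold rise (log2 fold change 3.46, SE 0.26, edgeR adjusted p = 3.97e-06). Bhlhe41, another repressor of E-box genes, measured 2.04, 1.77 and 2.08 CPM at 0 h and 1.51, 3.75 and 10.6 CPM at 48 h, and it was not called (adjusted p = 0.0582). Its relative Bhlhe40 had a log2 fold change of -0.05 (adjusted p = 0.83), with the opposite sign when libraries were scaled by size only. Hlf, a D-box activator like Dbp and Tef, measured 58.0, 45.6 and 57.0 CPM at 0 h and 50.6, 86.2 and 72.2 CPM at 48 h, and it overlapped between groups and was not called (adjusted p = 0.117). Timeless, which also works in DNA replication, rose with a log2 fold change of 1.39 (adjusted p = 0.000221).

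Enzymes that set the stability of PER and CRY proteins, and a further repressor, showed small values. The kinase gene Csnk1e (0.49, edgeR adjusted p = 0.0325), the ligase subunit gene Fbxw11 (0.32, adjusted p = 0.0402) and Cipc, a CLOCK-interacting repressor (0.32, adjusted p = 0.0215), rose, but all 3 calls were lost with upper-quartile scaling, without the count filter and in the fits without 0 h replicate 1, without 0 h replicate 3 or without 48 h replicate 3. Csnk1d (0.20), Btrc (-0.16, positive with scaling by library size only) and Fbxl21 (-0.49), with adjusted p from 0.0963 to 0.334, were not called.

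Set out by the time of day at which they are known to peak in mouse liver, the 5 late-night to morning genes reported and the 11 afternoon to evening genes had medians of opposite sign. Of the late-night to morning genes 3 fell (Arntl, Npas2 and Cry1), 0 rose and 2 did not pass (Clock and Nfil3), with a median log2 fold change of -0.85. Of the afternoon to evening genes 8 rose (Dbp, Tef, Per1, Per2, Per3, Nr1d2, Ciart and Usp2), 1 fell (Nr1d1) and 2 did not pass (Hlf and Bhlhe41), with a median of 1.17. Hlf (0.56, edgeR adjusted p = 0.0111) and Bhlhe41 (1.86, edgeR adjusted p = 0.00329) both passed without 48 h replicate 1, and 10 genes of the list were then higher. The lowest values with 1 library left out were 0.20 for Hlf, without 48 h replicate 2, and 0.43 for Bhlhe41, without 48 h replicate 3, and neither gene passed there. Over all genes tested 21.4% were called higher and 19.3% lower. Nr1d1 was the exception in direction. These lists share 9 genes with the 10 above and were drawn up with the data known, so they are a description and not independent evidence.

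The same lists set the 48 h libraries apart from each other. Replicate 1 at 48 h was the lowest of its group for 11 of 11 afternoon to evening genes, whereas it was lowest for 34.4% of all genes tested. It was the highest of its group for Arntl, Clock, Npas2, Nfil3 and Cry1, and for 35.1% of all genes tested. These same 5 genes were lowest in replicate 2 among the 0 h libraries, as were 40.1% of all genes tested. For the afternoon to evening genes that library had no mirrored place, being highest for 1 and lowest for 4 of 11, while 0 h replicate 3 was highest for 8 and 0 h replicate 1 lowest for 7. Whether the hour of collection differed between animals of 1 group was not tested, since no hour is given.

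**Figure D4:**
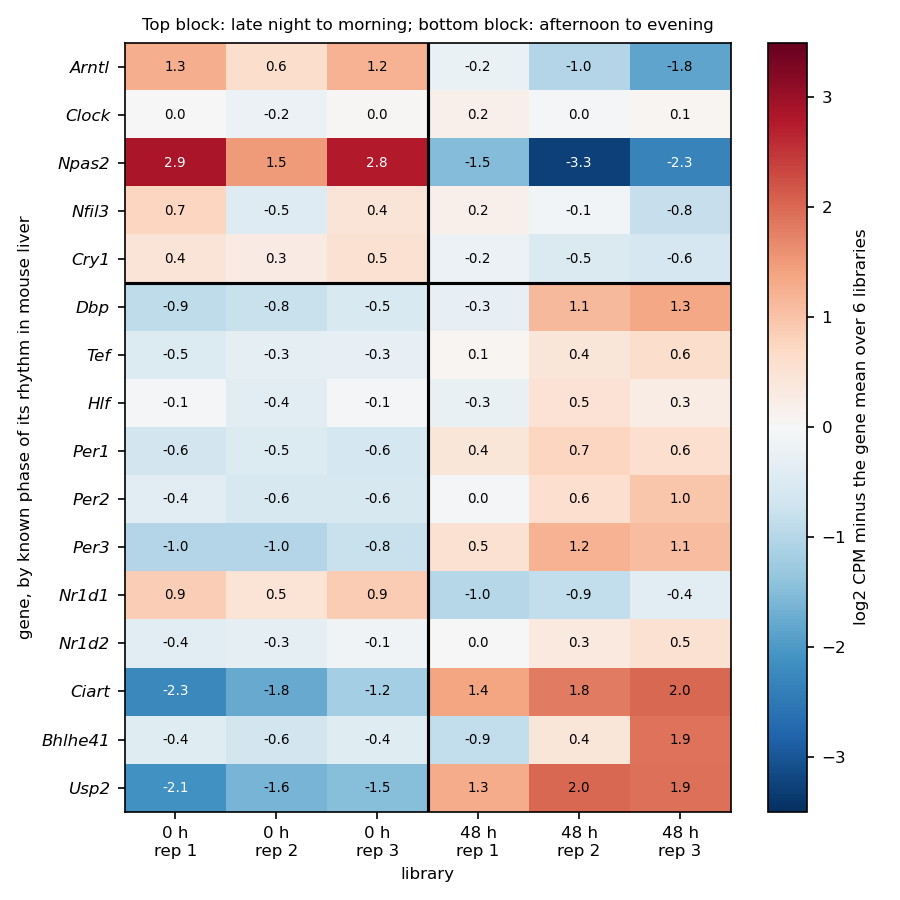
Log2 CPM of 5 late-night to morning genes (top block) and 11 afternoon to evening genes (bottom block) in each library, minus the gene's mean over the 6 libraries. The top block is mostly higher at 0 h and the bottom block mostly higher at 48 h, with Nr1d1 against its block, and 48 h replicate 1 paler than replicates 2 and 3 for Dbp, Per2, Tef and Arntl.

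Genes that the liver clock is known to drive were described as a further list. Of 16 such output genes 11 rose, 5 fell and 0 failed the test, beside the 40.7% of all genes that were called, with a median log2 fold change of 0.82. This list too was drawn up with the data known and shares Usp2 with the afternoon to evening list. It is a description and not independent evidence. The smallest edgeR adjusted p belonged to Cdkn1a (3.43, adjusted p = 1.19e-07), Wee1 (3.76, adjusted p = 1.3e-07), Usp2 (3.51, adjusted p = 9.19e-07) and Tspan4 (1.67, adjusted p = 1.55e-06), values given as log2 fold changes. The 5 that fell, named after their values were seen, were Ppp1r3c (-1.77), Insig2 (-1.43), Elovl3 (-5.11), Lpin1 (-1.31) and Gys2 (-0.79). Cdkn1a and Wee1 encode cell cycle inhibitors, so they belong to the cell cycle as well as to the clock output. Usp2, a deubiquitinase gene with E-box driven rhythm, measured 4.56, 6.38 and 7.02 CPM at 0 h and 49.3, 80.7 and 75.3 CPM at 48 h, with replicate 1 again the lowest of the 48 h group.

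The genes whose pattern over the 6 libraries was nearest to that of Arntl were Thrsp, Igfbp1 and Gadd45g, with root mean square distances of 0.28, 0.29 and 0.29 between centred log2 CPM values among 7563 genes whose mean reached 10 CPM. All 3 were lower at 48 h, with log2 fold changes of -2.07, -2.14 and -2.37. Nearest to Dbp were Tsku at 0.27, Acot4 at 0.31 and Per2 at 0.37, with log2 fold changes of 1.88, 1.17 and 1.07. Of the 10 clock genes, Per2 was thus the one whose values ran closest to those of Dbp.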

How the data were processed

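The deposited files hold raw read counts per gene, which the authors made for each library. Per the submitters' processing notes, the tools were FastQC 0.11.5, Trim Galore 0.6.4, STAR 2.6, HTSeq 0.12.4 and DESeq2 with build mm10, and the strand setting is not given in the sources used here. Rows that name no gene held 29.6% to 37.0% of each library's counts and were left out. The test used edgeR 4.0.16 (quasi-likelihood, TMM scaling, time point as the only term) under R 4.3.3. Genes needed 10 counts or more in 3 libraries or more, with Benjamini-Hochberg adjustment over all genes tested and a threshold of 0.05. The step was tested on simulated data. Ratios within a library used log2(CPM + 0.1) and a two-sided exact permutation test. Mean chi-square per gene between replicates was at least 26.2, so no library was a copy of another.

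The clock genes and all lists were chosen with earlier results of these data known. A pair of genes from the lists beside the 10 is not reported here, and list counts and medians leave them out. Named were all clock, phase and proliferation genes and up to 4 genes of each other list by adjusted p. Also named were any gene listed at 0, the output genes that fell, genes whose sign changed between fits, and the 3 genes nearest in pattern to Arntl and to Dbp. Lists of glucocorticoid-responsive and temperature-linked genes are given under the other observations. Alternatives were other scalings, count filters, DESeq2 1.42.0, limma-voom (limma 3.58.1), the replicate number as a block, other pseudocounts and leaving out each library. Promoter windows came from RefSeq, and gene positions and exon lengths from GENCODE M21 on GRCm38.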

Additional observations from a re-analysis of the deposited data

How the results depend on the processing

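The 7 called clock genes kept their direction and call in all 15 alternative fits, and the 10 clock genes had 145 of 150 alternative values on the same side of the threshold. Clock genes called lower numbered 2 to 4 across the leave-one-out fits, with 4 without 0 h replicate 2, through Cry2 and Nfil3. Cry2 also passed with upper-quartile scaling (-0.38, adjusted p 0.0292), Nfil3 without the count filter (-0.53, adjusted p 0.0186) and Clock with scaling by library size only (0.32, adjusted p 0.0369). Hlf (0.59), Bhlhe41 (1.66) and Csnk1d (0.39) passed with that scaling, which gave 9 other clock genes higher against 6, and Bhlhe41 also without the count filter (1.41). Scaling by library size only shifted the median of all genes by 0.20, gave 2110 genes lower against 3288, and gave 1 late-night to morning gene higher against 0. Other clock genes called higher numbered 3 with upper-quartile scaling and 3 to 6 with 1 library left out, 3 being reached without 0 h replicate 1, 0 h replicate 3 or 48 h replicate 3. With the replicate number as a block they also numbered 3, with Csnk1e, Fbxw11 and Cipc no longer called. No effect shared by same-numbered libraries was seen: the correlations of their deviations were 0.03, -0.07 and -0.14, and not every library correlated best with its own number. These correlations cannot show whether same-numbered libraries were handled as pairs. With scaling by library size only, log2 fold changes of the opposite sign were 0.18 for Rora, 0.16 for Bhlhe40, 0.0450 for Btrc, 0.0137 for Zbtb16 and 0.19 for Hspa1b. With 1 library left out the ranges were -0.17 to 0.0730 for Rora, -0.21 to 0.0914 for Bhlhe40, -0.0497 to 1.08 for Hspa1a and -0.76 to 0.69 for Hspa1b. The cause of these changes was not tested. Each group holds only 3 libraries, which limits the precision of every value, and the least covered clock gene had 143 counts in a library.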

Other observations

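Genes that respond to glucocorticoids, hormones whose daily surge sets clocks in liver, did not move in 1 direction. Of 7 such genes 1 rose, 3 fell and 3 did not pass the quasi-likelihood test of edgeR (Benjamini-Hochberg adjusted), with a median log2 fold change of -0.37. Over all genes tested 40.7% were called. Fkbp5 measured 9.43, 11.6 and 9.03 CPM at 0 h and 51.8, 44.1 and 43.4 CPM at 48 h, a log2 fold change of 2.21 (adjusted p = 7.33e-07). Tsc22d3 (-1.52, adjusted p = 0.000187), Dusp1 (-1.40, adjusted p = 8.75e-05) and Klf9 (-1.03, adjusted p = 0.00039) fell. Fkbp5 and Tsc22d3, both known targets of the glucocorticoid receptor, thus had values of opposite sign.

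Of 7 genes whose rhythm follows body temperature, 2 rose, 1 fell and 4 did not pass, with a median of 0.30. These 3 calls among 7 genes stand beside the 40.7% of all genes called, a similar share. Hsph1 (-0.65, adjusted p = 0.0633) was not called here but passed in 6 of 15 alternative fits. Hsp90aa1 rose (0.79, adjusted p = 0.00221), and of the cold-inducible RNA-binding protein genes Cirbp fell (-0.82, adjusted p = 0.0025) while Rbm3 rose (0.57, adjusted p = 0.0244). Rbm3 overlapped between the groups, at 11.4, 15.5 and 11.1 CPM at 0 h and 22.7, 18.7 and 15.3 CPM at 48 h. Its call was lost in 5 of 15 alternative fits.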
